A study of Mus musculus with 21 samples.

Results

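The mitochondrial respiratory chain genes were followed in murine pancreatic ductal adenocarcinoma (PDAC) cells before, during and after resistance to trametinib, an inhibitor of the kinase MEK. Members were found by symbol: Nduf genes (complex I), Sdha to Sdhd (complex II), Uqcr genes (complex III), Cox4 to Cox8 genes (complex IV) and Atp5 genes (complex V, the ATP synthase), together with the protein-coding genes of the mitochondrial genome. Of 34478 listed genes 96 matched, 83 in the nucleus and 13 in the mitochondrial genome, after 2 symbols marked as pseudogenes had been left out. Genes were tested where 3 or more samples reached a value of 10, which 19300 genes did and with them 90 members, 77 nuclear and all 13 mitochondrially encoded ones.

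The cells were primary lines from pancreatic tumors of mice with a Ptf1a wt/Cre allele and Trp53 loxP/loxP. All groups share these alleles, in which Cre driven by Ptf1a removes Trp53 in cells of the pancreatic lineage. The 6 lines #3, #4, #6, #7, #9 and #10 were sequenced as parental cells, as resistant cells kept in trametinib at 100 times their IC50, and as P12 cells after 12 passages without the drug. Lines #3, #7 and #9 were also sequenced as P5 cells after 5 drug-free passages, although part of the sample descriptions of #7 and #9 gives 12 for these. The 21 libraries, 6 parental, 6 resistant, 3 P5 and 6 P12, hold 1 sample per line and state, so lines are the replicates and p-values cover the spread between lines. A resistant sample is a culture of a line in the continued presence of the drug, so selection over months and the acute action of the drug cannot be told apart.

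The respiratory chain passes electrons from NADH (complex I) and succinate (complex II) over ubiquinone and complex III to oxygen at complex IV, and complex V makes ATP from the proton gradient built on the way. Complexes I, III, IV and V are mosaics of subunits from both genomes, whereas complex II is wholly nuclear. The mitochondrial genome is transcribed by its own polymerase into long precursors, so its messages and the nuclear ones are made by separate machineries.

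Values are counts normalized by the authors. Whether all genes of a library were divided by the same factor is not given in the sources used here. The totals of the values lay between 28.6 and 37.1 M per sample. From the spacing of low values, 3 reads were estimated to correspond to 2.31 to 4.06 normalized counts. This estimate takes the same step for all genes of a library, although only 40.4% to 67.6% of low values lay near its multiples. Of 8 ductal epithelial markers, Epcam was listed at 0 in 20 of 21 samples, and the summed ductal level ranged from 18366 to 284718 in parental and from 1693 to 211587 in resistant samples. The summed level of 9 fibroblast markers ranged from 106 to 25186 and from 494 to 577658, and Col1a2 was listed at 0 in 8 samples. Leukocyte markers summed to 143 to 279 in parental and 208 to 2906 in resistant samples, endothelial markers to 44.8 to 180 and 32.8 to 2757, and striated muscle markers to 52.2 to 758 and 58.3 to 248. The leukocyte maximum was mostly Csf1r, at 2530 in resistant #10, where Cd68 was 348, Ptprc 12.8 and Itgam 4.69. The endothelial maximum was mostly Tek, at 2512 in resistant #6, where Kdr was 214, Pecam1 26.5, Vwf 4.08 and Cdh5 0. The part of these shifts in the results on respiratory genes was not tested, and in such bulk samples a change in the share of a cell type and a change in RNA per cell cannot be told apart. Transcriptional targets of MAPK signaling summed to 33411 to 38492 in parental and 3134 to 10916 in resistant samples, without overlap.

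For several members the deposited values depended on a second locus with almost the same sequence. The mitochondrial copies form a block on chromosome 1, and most of the copies of nuclear members are processed pseudogenes. The following stretches, read from the GENCODE M21 transcripts of build GRCm38, are shown because reads from such stretches can be assigned to either locus. The pair for mt-Co2, a copper-binding core subunit of complex IV, had no difference over 681 aligned bases, of which the first 60 are given, with mt-Co2 at chrM:7013-7072 on the plus strand and Gm28661 at chr1:24615506-24615565 on the minus strand.
mt-Co2: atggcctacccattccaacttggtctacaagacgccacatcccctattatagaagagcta
Gm28661: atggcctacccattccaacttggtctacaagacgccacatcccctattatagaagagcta
The complex I gene mt-Nd3 (chrM:9459-9491, plus strand) and its copy Gm28438 (chr1:24613087-24613119, minus strand) had a single difference over 345 bases, T3C counted from the start of the transcript, in capitals below.
mt-Nd3: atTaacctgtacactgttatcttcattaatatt
Gm28438: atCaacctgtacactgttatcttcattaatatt
Ndufs5, an accessory subunit of complex I (chr4:123715969-123716029, minus strand), and the pseudogene BC002163 (chr16:42955681-42955741, plus strand) differed at 2 of 319 bases, T328C and A352G, again in capitals.
Ndufs5: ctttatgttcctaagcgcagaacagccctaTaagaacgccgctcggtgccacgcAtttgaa
BC002163: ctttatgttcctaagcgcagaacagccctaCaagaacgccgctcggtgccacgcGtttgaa

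The share of counts given to the copy varied widely between libraries. For mt-Co2 the copy took 19.6% to 85.0% of the counts of gene and copy, for mt-Atp6 27.8% to 84.1% and for mt-Nd3 46.1% to 87.7%. The copy of mt-Co3 was listed at 0 in all libraries of #3, in the parental and P5 libraries of #7 and in the resistant library of #10, yet took up to 65.2%, in parental #9. The share followed the line in #3 and #7, where it stayed low for mt-Co3 in every state, but within #9 it fell from 65.2% in parental to 13.2% in resistant cells and within #10 from 35.7% to 0. BC002163 was listed at 0 in all libraries of #7 and in resistant and P12 #4, but took 26.9% in parental #4 and up to 57.7% elsewhere. Smaller or steadier shares were found for mt-Co1 (3.41% to 9.91%), Atp5g2 (88.8% to 93.4%), Cox7c (9.37% to 15.5%) and Atp5l (6.04% to 16.7%).

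mt-Nd6, a complex I subunit and the only mitochondrially encoded member on the minus strand, also separated libraries in steps. Whether strand was used in quantification is not given in the sources used here, so its reads and those of the opposite strand cannot be told apart. It stayed between 1211 and 1950 normalized counts in the 4 libraries of #3, between 1036 and 1452 in those of #7, between 143 and 231 in #4 and between 136 and 268 in #6. In #9 it went from 359 in parental to 824 in resistant, 3297 in P5 and 970 in P12 cells, and in #10 from 236 to 1482 and 603. Between parental and resistant cells, #9 and #10 thus had the largest changes of both mt-Nd6 and the mt-Co3 split. Changes of mitochondrially encoded members that have a copy are therefore also given with copies added. So are the medians of the 13 in the comparisons over the lines, which are given without #9 and #10 as well. Medians within single lines are of the deposited values.

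**Figure D1:**
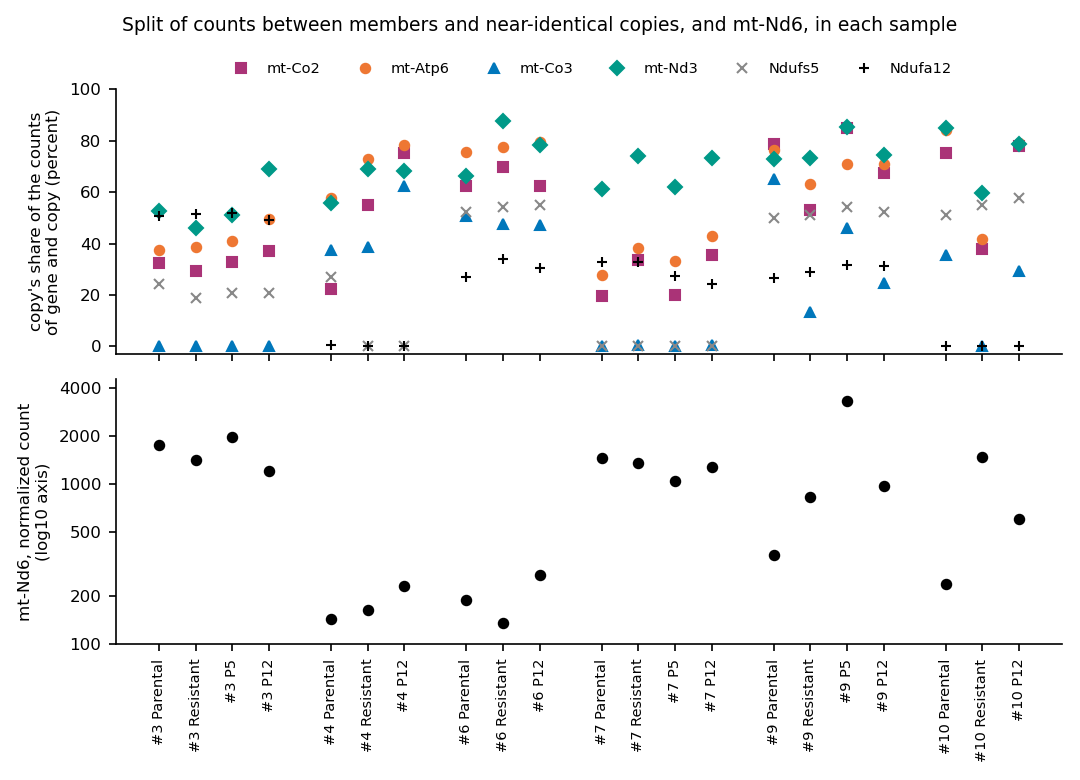
Upper plot: share of the counts of a gene and its near-identical copy that was assigned to the copy (percent) in each of the 21 samples, for 4 mitochondrially encoded and 2 nuclear members. Lower plot: normalized count of mt-Nd6 on a log10 axis in the same samples. The mt-Co3 copy sits at or near 0 in every sample of #3 and #7, and mt-Nd6 is at 1036 or more in these lines and at 268 or less in #4 and #6.

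Per kilobase of transcript, the mitochondrially encoded members were far more abundant than the nuclear ones. Their mean level had a median of 100724 normalized counts per kb, with mt-Co1, the catalytic subunit of complex IV, highest at 367117 and mt-Nd6 lowest at 1866. The nuclear members had a median of 2794 and ran from 60.2 for Cox7a1, the isoform of heart and skeletal muscle, to 18851 for Atp5b, the catalytic beta subunit of the ATP synthase. Cox4i1, the ubiquitous subunit 4 isoform, reached 12198, and Ndufa4, a complex IV subunit despite its symbol, 11408. The 6 members that missed the level for testing were all tissue-restricted isoforms of complex IV. Cox8c was listed at 0 in all 21 samples, Cox7b2 reached 1.34, Cox4i2 4.31, Cox6b2 13.2, Cox6a2 15.6 and Ndufa4l2, a hypoxia-responsive relative of Ndufa4, 35.2 in resistant #9.

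As a share of all counts, mitochondrially encoded members took 4.01% ± 0.69 (SD, n = 6) in parental, 5.32% ± 2.36 (n = 6) in resistant, 6.20% ± 0.83 (n = 3) in P5 and 4.87% ± 0.99 (n = 6) in P12 cells. The 83 nuclear members took 0.763% ± 0.078, 0.759% ± 0.073, 0.754% ± 0.025 and 0.826% ± 0.121 in the same order. The ranges of parental and resistant cells overlapped for both. The spread of the mitochondrial share was widest among resistant cells, from 2.83% in #4 to 8.65% in #9, whereas parental cells lay between 3.02% in #6 and 5.04% in #3. With the copies added, parental samples lay between 3.87% and 5.60% and resistant samples between 3.49% and 10.3%.

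**Figure D2:**
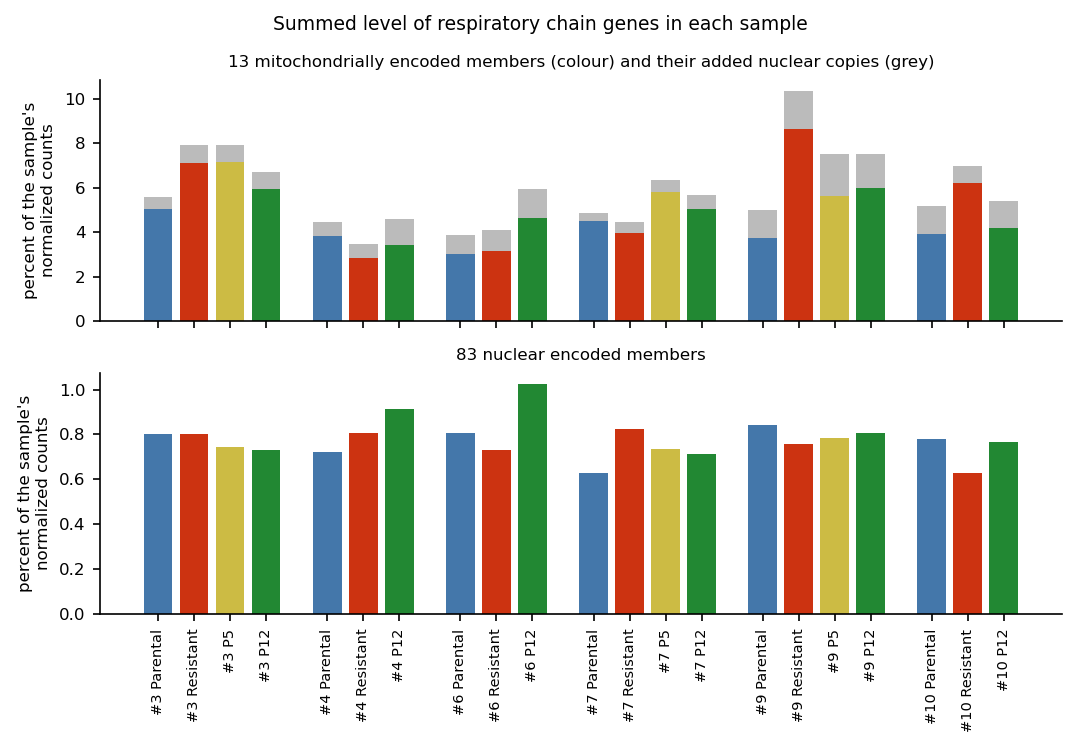
Summed share of all normalized counts (percent) in each of the 21 samples, for the 13 mitochondrially encoded members (colored by state, with the added share of their copies in gray) and for all 83 nuclear members. Resistant #9 stands highest for the mitochondrial part at 8.65%, while the nuclear part stays between 0.627% and 1.02% in all samples.

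In #4, #7, #9 and #10, the summed levels of the parts encoded by the 2 genomes moved in opposite directions between parental and resistant cells. In #9 the summed mitochondrial level was 2.41-fold that of parental cells (2.15-fold with copies), while the nuclear sum was 0.935-fold. In #10 these values were 1.57-fold (1.34-fold with copies) and 0.796-fold. In #4 and #7 the order was the reverse, with the mitochondrial sum 0.805-fold and 0.919-fold (0.852-fold and 0.956-fold with copies) and the nuclear sum 1.22-fold and 1.37-fold. With the copies, the mitochondrial sum was 1.49-fold in #3 and 1.20-fold in #6, and the nuclear sum there was 1.05-fold and 1.02-fold.

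The same division appeared in the median log2 difference per line, which gives each member equal weight. The nuclear median was 0.43 in #4 and 0.50 in #7, where 64 and 62 of 77 members were higher in resistant cells, and it was -0.13 in #9 and -0.09 in #10, where 32 and 33 were. The mitochondrial median of deposited values was 1.25 in #9 and 0.69 in #10, with 13 of 13 members higher in both, and -0.16 in #4 and -0.09 in #7. With copies added, mt-Atp6, mt-Co2 and mt-Nd3 turned from lower to higher in resistant #7, while mt-Co1 and mt-Co3 stayed lower. The sign of the median in #7 thus rests on the split with the copies. The median over all genes tested stayed between -0.03 and 0.02 in every line. The 6 lines therefore gave no common direction for either part, and the relation between the parts across lines, with 6 points from shared libraries, was not tested.

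**Figure D3:**
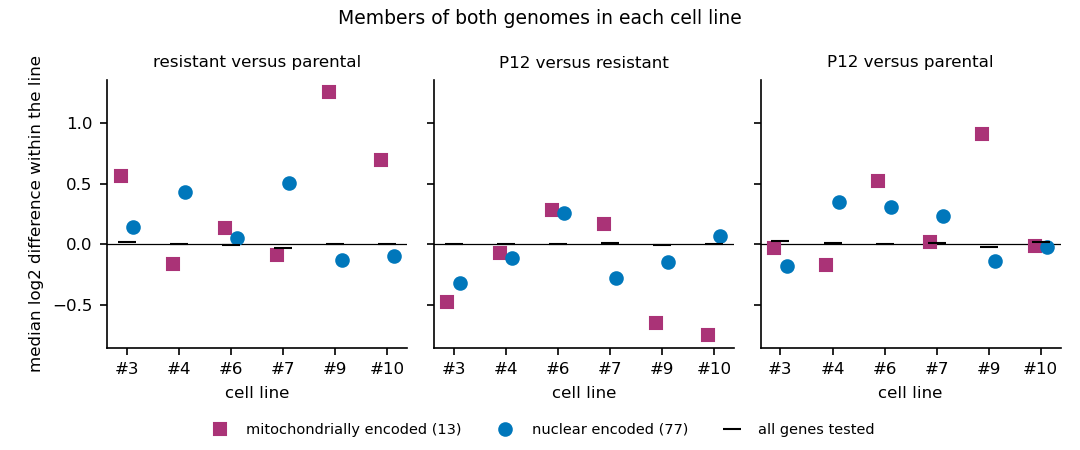
Median log2 difference between states of the same line for the 13 mitochondrially encoded members (squares), the 77 nuclear members (circles) and all genes tested (dashes), in 3 comparisons. Values are as deposited, without copies added. Between resistant and parental cells, squares are highest in #9 and #10, where circles lie just below 0, and lie below circles in #4 and #7.

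In the comparison of resistant with parental cells over the lines, 7 members passed an adjusted p of 0.05 in limma fitted across all genes, and all 7 were nuclear. Ndufb6, Ndufb9, Ndufv3, Uqcrq and Cox6c rose, which is 5.56% of 90 members, where 7.73% of all genes rose. Sdha and Uqcrc2 fell, 2.22% of members, where 7.90% of all genes fell. The share of members called was thus near or below that of genes in general. At the thresholds of the study, an adjusted p below 0.01 with a log2 change beyond 1, 0 of 90 members passed against 5.30% of all genes. At an unadjusted p below 0.05, 20 members passed (22.2%, against 29.2% of all genes), 16 nuclear and 4 mitochondrial.

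Since the states of a line resemble each other, the line was also fitted as a replicate block, which keeps each line's own level out of the error. Then 16 members rose, 17.8% against 12.8% of all genes, and 2 fell, 2.22% against 13.2%. The 7 members above were called in both fits. Without the block, however, single lines mattered: without #4 only Ndufb6 was called, without #6 only Ndufb6 and Cox6c, without #3 no longer Ndufb9 and Ndufv3, without #7 no longer Ndufv3, and without #10 no longer Ndufv3 and Uqcrc2. Without #9 all 7 were called together with Cox7a2 and Cox8a. With copies added to the block, 18 rose against 12.8% of all genes, and 2 fell.

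Complex I oxidizes NADH and is the largest of the complexes. Of its 35 nuclear members 3 rose and 0 fell, with a median log2 change of 0.16 where the median over all genes was -0.00491. The 3 that rose are accessory subunits, which surround the catalytic core.

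Ndufb6 (chr4:40270591-40279421), a subunit of the membrane arm, measured 549, 658 and 838 normalized counts (lowest, median, highest) in parental and 854, 1083 and 1331 in resistant cells. The groups did not overlap. The log2 change was 0.69 ± 0.16 (SE), with an adjusted p of 0.00745 in limma, and 6 of 6 lines were higher.

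Ndufb9 (chr15:58933756-58939488), another subunit of the membrane arm, measured 1492, 2153 and 2543 in parental and 2528, 3555 and 4571 in resistant cells. The groups overlapped only through resistant #10, just below parental #9, and 6 of 6 lines were higher. Ndufb9 changed by 0.70 ± 0.19 on the log2 scale, with an adjusted p of 0.0188 in limma.

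Ndufv3 (chr17:31520115-31531331), a subunit next to the flavoprotein site at which NADH binds, measured 789, 834 and 996 in parental and 1105, 1314 and 2437 in resistant cells. The groups did not overlap, and resistant #4 stood far above the other resistant samples. For Ndufv3 the log2 change was 0.69 ± 0.20, with an adjusted p of 0.0271 in limma.

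With the replicate block, 4 more nuclear complex I members rose. Ndufs5 changed by 0.87 ± 0.40, with an adjusted p of 0.157 in limma and 0.00608 with the block. Its counts are split with BC002163 as shown above, and it measured 214, 321 and 490 in parental and 260, 560 and 1339 in resistant cells. With the copy added, the values were 450, 505 and 635 and then 577, 884 and 1339, the log2 change was 0.81 and the adjusted p 0.0081 without a block. Its change was thus above that of Uqcrq (0.83) as deposited and below it with the copy added. Resistant #4 gave the highest value either way, and 6 of 6 lines were higher.

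The other 3 called with the block were Ndufs7, which carries the last iron-sulfur cluster before ubiquinone, at 0.51 (adjusted p 0.0291), Ndufa5 at 0.57 (0.0477) and Ndufa11 at 0.40 (0.0442). Among the nuclear core subunits, which include the carriers of the redox centers, Ndufs1, Ndufs3, Ndufs8, Ndufv1 and Ndufv2 were not called in either fit. Their log2 changes were -0.43, 0.13, 0.09, 0.18 and 0.04. Ndufs1, with the lowest change of complex I, had an adjusted p of 0.137.

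Complex II couples the oxidation of succinate in the TCA cycle to the chain. Of its 4 members, only Sdha passed the test. Sdha (chr13:74322254-74350280), the flavoprotein subunit that oxidizes succinate, measured 6439, 8072 and 9056 in parental and 4616, 5190 and 6437 in resistant cells. The groups did not overlap, although parental #10 at 6439 and resistant #7 at 6437 lay next to each other, and 6 of 6 lines were lower. The log2 change was -0.54 ± 0.15, with an adjusted p of 0.0179 in limma. The iron-sulfur subunit Sdhb changed by 0.12 and the membrane anchors Sdhc and Sdhd by -0.13 and 0.02, with none called.

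Complex III passes electrons from ubiquinol to cytochrome c. Of its 8 nuclear members 1 rose and 1 fell. Uqcrq (chr11:53427922-53430831), a small accessory subunit, measured 1022, 1758 and 1973 in parental and 2242, 2775 and 4164 in resistant cells. The groups did not overlap, and parental #7 stood lowest. Uqcrq changed by 0.83 ± 0.22 on the log2 scale, with an adjusted p of 0.0157 in limma.

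Uqcrc2 (chr7:120635176-120659524), one of the pair of large core proteins on the matrix side, measured 3337, 3619 and 4342 in parental and 2256, 2629 and 2917 in resistant cells. The groups did not overlap, and 6 of 6 lines were lower. The log2 change was -0.52 ± 0.15, with an adjusted p of 0.0210 in limma. The other core protein, Uqcrc1, changed by -0.45 with an adjusted p of 0.216, and the Rieske iron-sulfur protein Uqcrfs1 by -0.33 with 0.335. Uqcr10, a small subunit, was called higher only with the block, at 0.55 and an adjusted p of 0.0353.

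Complex IV reduces oxygen. Of its 13 nuclear members tested 1 rose, with a median log2 change of 0.27. Cox6c (chr15:35925886-35938246), an accessory membrane subunit, measured 1913, 2707 and 2781 in parental and 3383, 3951 and 4673 in resistant cells. The groups did not overlap, and 5 of the 6 parental values lay between 2617 and 2781 with #7 below them. For Cox6c the log2 change was 0.62 ± 0.16, with an adjusted p of 0.0143 in limma. Cox7a2, the widely expressed isoform of subunit 7a, and Ndufa4 were called higher only with the block, at 0.64 (adjusted p 0.0336) and 0.51 (0.0450).

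Subunits of complexes IV and V that exist as isoforms were also counted as a group. Of 18 in the table, 12 were tested and 0 were called in limma, with 3 at an unadjusted p below 0.05, and with the block Cox7a2 and Ndufa4 rose. Cox6a1, with a change of 0.42, had an adjusted p of 0.147. Cox7a1 had the least steady value, from 11.7 to 29.7 in parental and from 6.63 to 114.5 in resistant cells, with #3 highest and #9 lowest among the latter. Its log2 change was -0.16 ± 0.68.

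Complex V had 0 called members of 17 in limma with or without the block. At an unadjusted p below 0.05, 1 passed without it (5.88%, against 29.2% of all genes) and 6 with it (35.3%, against 37.8%), and the median log2 change was 0.21. Atp5a1, Atp5b and Atp5c1, of the catalytic head and its shaft, changed by -0.28, -0.08 and -0.04, and Atp5g1, Atp5g2 and Atp5g3, which encode the same ring subunit, by 0.40, 0.32 and 0.21. The highest change was that of Atp5l at 0.44 (adjusted p 0.185) and the lowest that of Atp5sl, now known as an assembly factor of complex I, at -0.56 (0.0961).

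**Figure D4:**
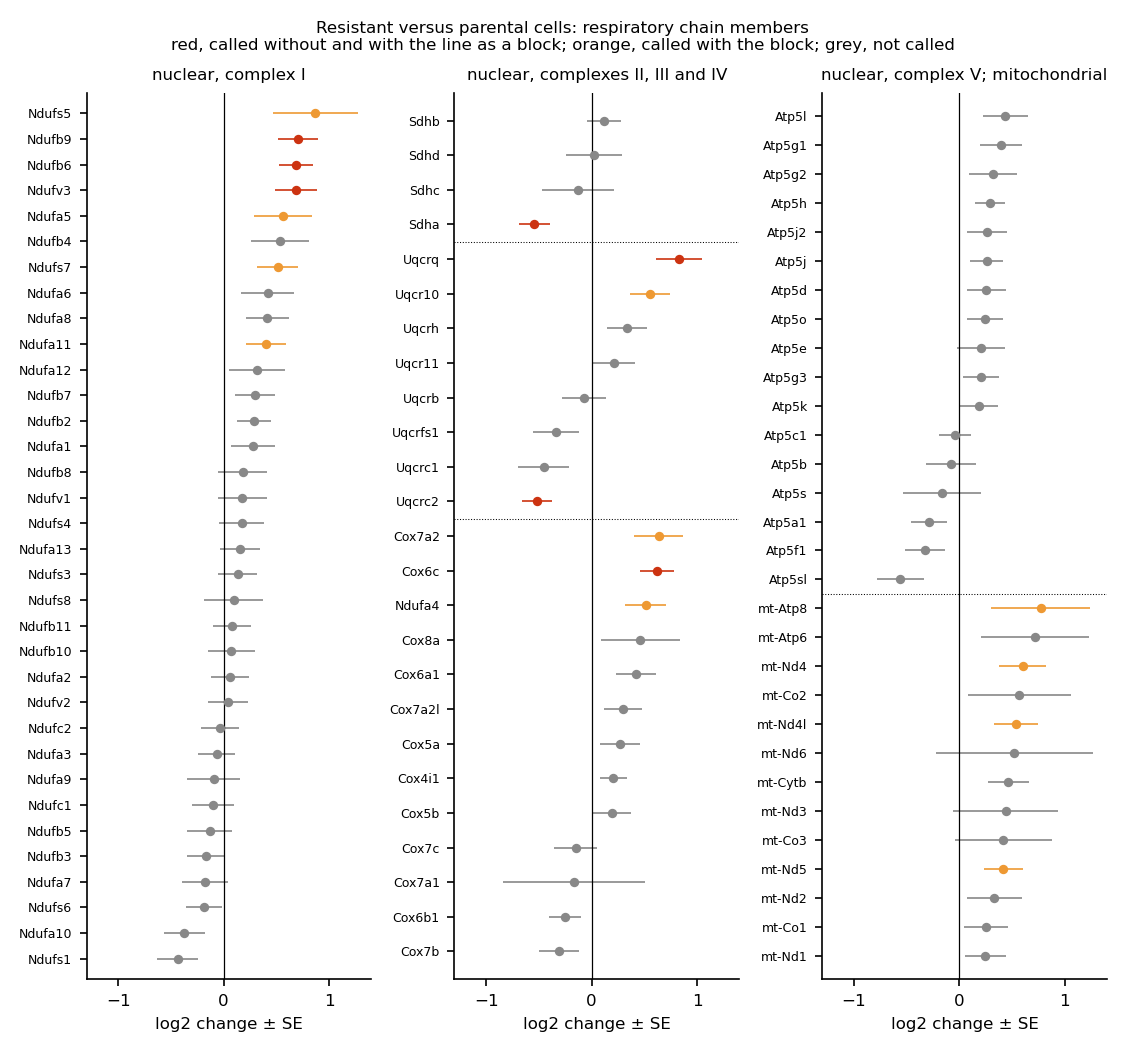
Log2 change from parental to resistant cells (points, with SE bars) of tested members, by complex and genome. Red marks the 7 members called in both fits, orange the 11 called only with the line as a block and gray the rest, and the 13 mitochondrially encoded members all lie above 0.

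The called members differed in transcript length. Over GENCODE transcripts, the 50 nuclear members with a positive change had a median length of 637 nt and the 27 with a negative change 782 nt. The 12 nuclear members that rose in either fit ran from 434 to 870.5 nt, and Uqcrc2 and Sdha, which fell, were 1179 and 1811 nt long. The Spearman correlation of length with log2 change was -0.31 across the 77 members and 0.03 across 18548 genes, given as a description, since genes of the same libraries are not independent. Among members under 800 nt, 33 of 47 had a positive change and the median was 0.24, whereas 2714 genes of that length had a median of -0.04. The median of genes that short and with a mean of at least 100 had the sign of the nuclear median in 5 lines, at 0.19 in #7, 0.07 in #4, 0.02 in #6, -0.21 in #9 and -0.10 in #10. In #3 it was -0.15 where the nuclear median was 0.14. These lengths are medians over the transcripts listed for a gene, and which of them were expressed was not determined. The median was 651 nt for Ndufs1 and 533 nt for Uqcrc1, both with a negative change, and 2675.5 nt for Atp5g1, with a positive one. The length classes and the correlation can therefore misplace single members. The part of transcript length in the result was not tested.

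All 13 mitochondrially encoded members had a positive log2 change between resistant and parental cells, with a median of 0.46. In limma without a block 0 were called, with 4 at an unadjusted p below 0.05 (30.8%, against 29.2% of all genes). With the block 4 rose, where 12.8% of all genes did. These 4 were higher in 6 of 6 lines (30.8% of the 13, against 8.99% of all genes). Because the mitochondrial messages share precursors and libraries, the 13 do not count as independent observations.

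mt-Nd4 encodes a proton-pumping subunit of complex I. In parental cells it measured 70998, 93877 and 110124 normalized counts and in resistant cells 86802, 129536 and 245494. The groups overlapped, and resistant #9, #3 and #10 were highest. The log2 change was 0.60 ± 0.22, with an adjusted p of 0.0743 in limma and 0.0105 with the block.

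mt-Nd4l, whose message overlaps that of mt-Nd4, changed by 0.54 (adjusted p 0.0147 with the block), mt-Nd5, a further pumping subunit, by 0.42 (0.0370) and mt-Atp8, a small subunit of the ATP synthase, by 0.77 (0.0435). For mt-Atp8 the lines ranged from 0.13 in #7 to 2.19 in #9. Parental values were 6055, 10180 and 27834 and resistant values 7699, 25484 and 36070, so that the groups overlapped over most of their range.

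The remaining mitochondrially encoded members were not called in either fit of the deposited values. mt-Cytb, the only mitochondrially encoded subunit of complex III, changed by 0.46 ± 0.20 (adjusted p 0.117), mt-Nd1 by 0.25 and mt-Nd2 by 0.33. The members with large copy shares had wide errors, 0.57 ± 0.49 for mt-Co2 and 0.72 ± 0.52 for mt-Atp6. With the copies added these narrowed to 0.37 ± 0.19 and 0.47 ± 0.22, and mt-Atp6 passed the test with the block. mt-Co3 changed by 0.42 ± 0.46 as deposited and by 0.083 ± 0.25 with its copy, mt-Nd3 by 0.44 ± 0.50 and by 0.60 ± 0.32, and mt-Co1 by 0.25 either way. mt-Nd6 changed by 0.52 ± 0.75, the widest error among the 13. Without lines #9 and #10, which were left out only once the data had been seen, the mitochondrial median was 0.069 and the nuclear median was 0.29, and with the copies added the mitochondrial median over all lines was 0.46.

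**Figure D5:**
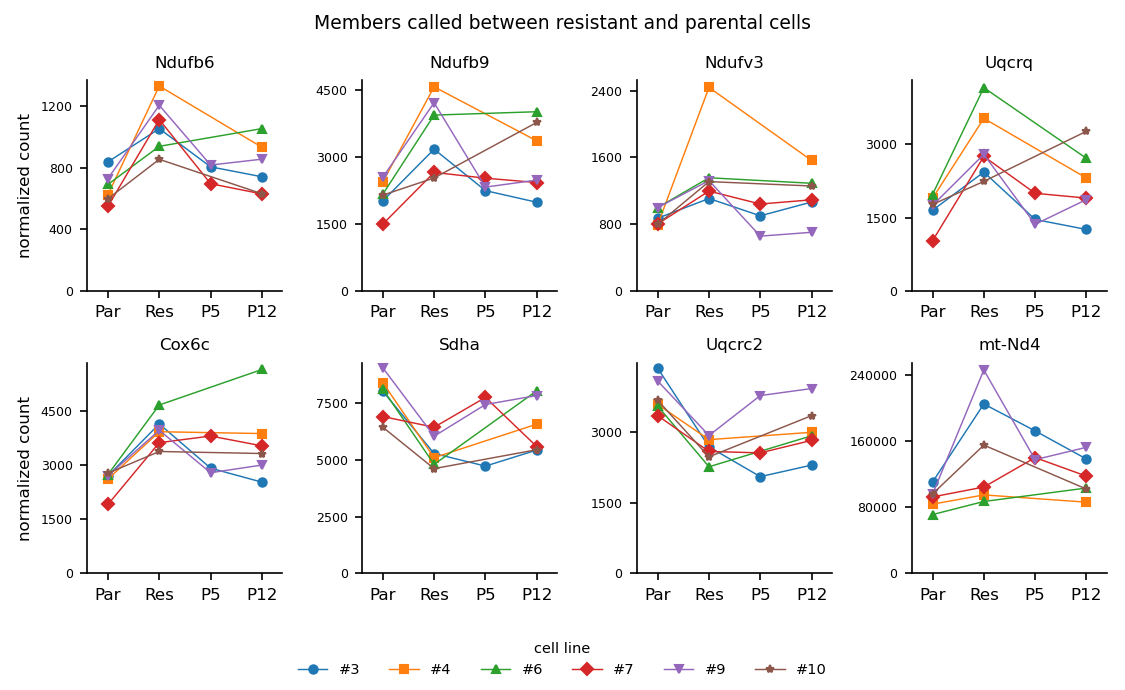
Normalized counts (linear axes from 0) of the 7 members called between resistant and parental cells and of mt-Nd4, in each line and state (Par, parental; Res, resistant), 1 point per library with lines joining states of the same cell line. Sdha and Uqcrc2 are lower and the other 6 higher in the resistant than in the parental sample of every line.

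The comparison of P12 with resistant cells asks which levels moved after the drug was withdrawn. It shares its resistant samples with the comparison above. In limma 0 of 90 members were called, where 6.22% of all genes were, and 6 had an unadjusted p below 0.05 (6.67%, against 19.8% of all genes). With the block 2 were called, against 12.7% of all genes.

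Cox7b, a small complex IV subunit, measured 1795, 2032 and 3224 in resistant and 2319, 3129 and 4580 in P12 cells. It was higher in 6 of 6 lines, by 0.05 in #9 to 1.28 in #6, with a log2 change of 0.61 and an adjusted p of 0.0270 with the block. Cox6a1, the widely expressed isoform of subunit 6a, measured 5408, 6292 and 8976 in resistant and 3088, 4497 and 6481 in P12 cells. It was lower in 6 of 6 lines, with a log2 change of -0.52 and an adjusted p of 0.0337 with the block. For both genes the groups overlapped.

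The members called between resistant and parental cells mostly lay between these states at P12. They were chosen by the difference between the same samples, so such a position, at P12 or at P5, is partly set by that choice. Ndufv3 was lower than in resistant cells in 6 of 6 lines, and Ndufb6, Uqcrq and Cox6c in 5 of 6. Ndufb9 was lower in 4. Sdha and Uqcrc2 were higher than in resistant cells in 5 of 6 lines, but lower than in parental cells in 6 of 6. None of these 7 passed the test between P12 and either other state.

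Over the parts, the median log2 change from resistant to P12 cells was -0.06 for nuclear members, of which 28 were positive and 49 negative, and -0.23 for mitochondrial members, of which 12 were negative. The median over all genes was 0.02. Rescaling turned the sign of the nuclear median, to 0.03 at the upper quartile and 0.09 at the total without mitochondrially encoded genes, but moved the median of all genes to 0.11 and 0.17 as well. Relative to all genes, the nuclear median was -0.08 in all 3 scalings and the mitochondrial one -0.25, -0.24 and -0.24. With copies added the mitochondrial median was -0.16, and without #9 and #10 it was 0.0064. By line, the mitochondrial median fell by 0.75 in #10, 0.64 in #9 and 0.47 in #3, and was 0.28 in #6 and 0.17 in #7. The lines in which it fell most were those in which it had risen most from parental to resistant cells. Both differences of a line use its resistant library, with opposite signs, so this order is partly set by the shared sample.

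Compared with parental cells, P12 cells had 0 called members in limma, where 0.658% of all genes were called, with 8 at an unadjusted p below 0.05 (8.89%, against 15.3% of all genes). With the block 0 were called against 5.32%, with 14 at an unadjusted p below 0.05 (15.6%, against 23.8%). The medians were 0.09 for nuclear and 0.17 for mitochondrial members, where that of all genes was 0.03. At the total without mitochondrially encoded genes these 3 values were 0.19, 0.27 and 0.12. With copies added the mitochondrial median was 0.26, and without #9 and #10 it was 0.11. Line #9 kept the largest mitochondrial difference, a median of 0.91, with #6 next at 0.52, and 13 of 13 members were higher in both. The median of deposited values was -0.17 in #4 and lay between -0.03 and 0.02 in #3, #7 and #10. With copies added, mt-Atp6 and mt-Nd3 turned from lower to higher in P12 #4, while mt-Co1, mt-Co2 and mt-Co3 stayed lower. The sign of the median in #4 thus rests on the split with the copies. Copies moved the mitochondrial sum from 0.829-fold to 0.948-fold parental in #4 and from 1.11-fold to 1.15-fold in #7. In #10 it went from 0.980-fold to 0.958-fold and in #3 from 1.03-fold to 1.05-fold. P12 #6 had the highest nuclear share of all samples, 1.02%, with a nuclear median of 0.31 above parental cells.

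P5 cells existed for #3, #7 and #9, so each statement on them rests on at most 3 libraries. Group comparisons without the block set these lines against all lines of the other state. Against resistant cells 0 members were called in limma, where 2.07% of all genes were, with 10 at an unadjusted p below 0.05 (11.1%, against 15.4%). Against parental cells 0 were called, where 0.0466% of all genes were, with 7 at an unadjusted p below 0.05 (7.78%, against 10.4%). Ndufb6, Ndufb9, Ndufv3 and Uqcrq were lower at P5 than in the resistant sample of the line in 3 of 3 lines. Cox6c was lower in #3 and #9 but higher in #7. Sdha, which had fallen in resistant cells, was higher at P5 in #7 and #9 but lower in #3. Uqcrc2, which had also fallen, was higher in #9 but lower in #3 and #7.

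All 13 mitochondrially encoded members had a positive log2 change from parental to P5 cells, with a median of 0.65 in the group comparison (0.58 with copies added) and 0.39 with the block, with or without copies. mt-Cytb measured between 233839 and 253826 in the P5 samples, all above the parental maximum of 201315, and differed from the parental sample by 0.53, 0.50 and 0.54 in #3, #9 and #7. Between resistant and P5 cells the mitochondrial median was 0.23 in the group comparison, with or without copies. With the block it was -0.07, with 6 members positive and 7 negative, and 0.03 once copies were added, with 8 positive and 5 negative. Without #9 and #10 it was 0.51 against resistant and 0.77 against parental cells. The lines gave -0.21 in #3, 0.54 in #7 and -0.76 in #9. The nuclear medians were -0.20 against resistant and -0.05 against parental cells, and the scaling moved both. At the upper quartile they were -0.093 and 0.0089, and at the total without mitochondrially encoded genes -0.031 and 0.057, so that the second turned its sign. With the block the second was 0.00072. Relative to the median of all genes they stayed at -0.23, -0.22 and -0.22 against resistant and at -0.07 in all 3 scalings against parental cells.

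Genes that build and serve the chain were listed by function and counted in limma for resistant against parental cells, where 7.73% of all genes rose and 7.90% fell (12.8% and 13.2% with the block). Among assembly factors, 0 of 15 for complex I rose and 1 fell (Acad9, -0.68), 1 of 14 for complexes II, III and V rose (Ttc19, a complex III factor, 0.72), and 2 of 21 for complex IV rose with 1 falling. The complex IV factors that rose, Cox10 at 0.79 and Cox11 at 0.75, act in heme synthesis and copper insertion, and Coa4 fell by 1.55. Of 30 genes of mitochondrial DNA maintenance and transcription 0 rose and 2 fell, Hsd17b10, a part of mitochondrial RNase P, at -1.29 and Fastkd5, an RNA-processing factor, at -0.48. Of 78 mitochondrial ribosomal proteins 1 rose (Mrpl33, 1.20) and 2 fell (Mrps27, -0.78, and Mrps31, -0.56), and with the block 2 rose and 6 fell.

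Of 11 regulators of mitochondrial biogenesis 1 rose and 2 fell, with a median of -0.28. Perm1, a regulator best known from muscle, rose by 2.18, and Yy1 fell by 0.70 and Gabpb2, a subunit of the ETS factor GABP, by 0.61. Among 13 TCA cycle enzymes 1 rose and 1 fell (Dlst, -0.86), and with the block 1 rose and 4 fell. Of 19 electron carriers and genes of ubiquinone synthesis Coq10a rose (0.95), with 2 falling under the block, Dhodh and Gpd2, which feed electrons into ubiquinone. Of 8 genes of ATP export and uncoupling 0 were called, and with the block Ucp2 fell. Of the 11 MAPK targets 0 rose and 10 fell.

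Among the marker genes tested, 2 of 7 ductal markers fell, Cdh1 with a log2 change of -7.11 and Sox9 with -3.06, while 5 of 7 fell with the block, and 0 of 8 fibroblast markers were called (4 rose with the block). Csf1r of 4 leukocyte markers and Tek of 5 endothelial markers rose, and Tnni2 of 5 muscle markers fell. 

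Promoters of the members were searched for the letters of factors known to act on respiratory genes. RefSeq windows of 300 bases, 250 before and 50 after the start (GRCm38.p6), were found for 66 of the 77 nuclear members. A gene was counted if any of its windows held the letters. The NRF1 letters GCGCANGCG, on either strand, were in 20 of the 66 (30.3%) and in 13.2% of 12394 tested genes with a window. Members were matched to windows by synonyms as well, the 12394 genes by the exact symbol only. They were in 16 of 45 members with a positive change (35.6%) and in 4 of 21 with a negative change (19.0%). The ETS letters CCGGAAGT, as bound by GABPA, were in 5 of 66 (7.58%) against 7.82%, and the ESRRA letters TCAAGGTCA in 2 of 66 (3.03%) against 0.363%. The windows of Ndufs5, a member that rose with the block (chr4:123718137-123718436, minus strand), and of Sdha, a member that fell (chr13:74350191-74350490, minus strand), both hold the NRF1 letters, in capitals.
Ndufs5 promoter: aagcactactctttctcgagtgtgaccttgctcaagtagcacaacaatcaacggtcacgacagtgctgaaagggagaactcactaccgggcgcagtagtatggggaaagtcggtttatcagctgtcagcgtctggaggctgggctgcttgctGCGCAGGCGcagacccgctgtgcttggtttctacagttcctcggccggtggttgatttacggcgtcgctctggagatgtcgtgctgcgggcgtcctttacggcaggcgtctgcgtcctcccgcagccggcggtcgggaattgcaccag
Sdha promoter: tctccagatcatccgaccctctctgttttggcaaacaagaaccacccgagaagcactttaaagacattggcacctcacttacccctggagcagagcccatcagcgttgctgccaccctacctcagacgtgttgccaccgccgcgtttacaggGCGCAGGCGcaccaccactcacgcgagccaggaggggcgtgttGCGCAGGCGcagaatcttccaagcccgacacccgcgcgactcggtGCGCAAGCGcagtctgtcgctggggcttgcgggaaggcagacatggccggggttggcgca
The letters thus occurred in members that rose and in members that fell.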

How the data were processed

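RNA of 6 murine PDAC lines was sequenced from TruSeq stranded mRNA libraries, and the labels gave the line and state of the 21 samples. The deposited table holds 1 signal value per gene and sample, a gene-level count normalized by the authors with DESeq2 1.18 after demultiplexing with CASAVA 2.17 or bcl2fastq 2.19, trimming with Skewer, quantification with salmon 0.12 on mm10 and import with TXImport. Raw counts were not used here, and methods for whole reads were not run, since only 40.4% to 67.6% of low values fell within 2% of a multiple of 1 step. Taken as the same for all genes of a library, that step put the depth at 24.1 to 42.7 M reads per sample. No sample column of the table was left out (0 of this kind). The sequencer models named by the study are not assigned to samples, so no values within sequencing batches are given.

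Before log2, 1 was added to each value as a pseudocount. Only genes that reached 10 in 3 or more samples were tested. The 4 states were fitted together with limma 3.58.1 (R 4.3.3, eBayes with a trend, Benjamini-Hochberg adjustment over 19300 genes, threshold 0.05), without a block, and the procedure was tested on simulated data. To describe the pairing, deviations of log2 values from the mean of their state were correlated across genes, without a block. For samples of the same line the correlation was 0.159 to 0.352 between parental and resistant cells. It was 0.337 to 0.520 between resistant and P12 and 0.00819 to 0.510 between parental and P12 cells. For samples of different lines it averaged -0.0462, -0.0903 and -0.0645 in the same order. The pairing itself comes from the line numbers in the labels. Members, gene lists and marker lists were chosen with earlier results of these data known, and the gene lists were recalled from general knowledge. Genes named are the mitochondrially encoded members, called nuclear members, the extremes of each complex, tissue isoforms and called genes of the lists, and others that were named after their values were seen are Ndufs3, Ndufs8, Ndufv1, Ndufv2, Sdhc, Sdhd, Uqcrc1, Uqcrfs1, Atp5a1, Atp5b and Atp5c1.

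Copies were loci of GENCODE M21 with at least 99% identity to a member's transcript over at least 150 bases and 90% of the copy (blastn 2.17.0), and their values were added to the member's in a variant that was set up once the data had been seen, as was the one without #9 and #10. Lengths are medians over a gene's transcripts. Python 3.11.15 with pandas 2.3.3, numpy 2.4.6 and matplotlib 3.10.9 was used. An allele of the genotype and values of some genes are not reported here. Alternatives were other pseudocounts, filters and scalings, the block, a fit of only the compared states, the thresholds of the study and the removal of each line.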

Additional observations from a re-analysis of the deposited data

Results flagged for a closer look

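Of 108 groups of 6 values looked at, 10 held a sample whose gap to its nearest neighbor exceeded Dixon's critical share of the range, 0.625, which chance does in about 1 in 20 groups. Atp5l was highest in resistant #3 at 5809 normalized counts, with the next sample at 3639. Cox6a1 was highest in resistant #6 at 8976, with the next at 6330. Cox6c was lowest in parental #7 at 1913, with the next at 2617. Cox7b was highest in resistant #9 at 3224, with the next at 2225. Ndufa11 was highest in resistant #4 at 1424, with the next at 956. Ndufv3 was also highest in resistant #4, at 2437, with the next at 1354. Ndufs1 was highest in P12 #9 at 4724, with the next at 3337. Uqcrq was lowest in parental #7 at 1022, with the next at 1649. mt-Nd2 was highest in P12 #9 at 136214, with the next at 73897. mt-Nd3, which shares its counts with a copy, was highest in parental #3 at 10454, with the next at 5048. Parental #7, resistant #4 and P12 #9 each stood apart for 2 members, and for Ndufv3, Cox6c and Uqcrq the sample lay on the side that widens the gap between parental and resistant cells.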

How the results depend on the processing

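Of the changes of named members, 408 values under alternatives kept their direction and side of the threshold. A further 8 passed it only under the alternative and 16 only in the fit reported, and 0 reversed. This tally leaves out the variant without #9 and #10 and the block with copies added, so reversals in these were not counted. Between resistant and parental cells, the 7 calls became 18 with the line as a replicate block, 20 with the block and copies added, 0 at the thresholds of the study and 1 to 9 when a line was left out. Without #9 and #10, 5 were called, Ndufb6, Uqcrq and Uqcrc2 of the 7 with Cox7a2 and Uqcr10 added. Between P12 and resistant cells, the 0 calls became 2 with the block and 2 with the block and copies added, 1 at the upper quartile, 1 at the total without mitochondrially encoded genes, 1 without #9 and #10, and 0 to 1 when a line was left out. The block changed no other count of calls. The share of all called genes that were higher at P12 than in resistant cells was 51.4% as deposited, 61.2% at the upper quartile and 68.3% without the mitochondrially encoded total. The nuclear median between P5 and resistant cells, -0.20, was -0.093 at the upper quartile, where the median of all genes went from 0.03 to 0.13, -0.031 at the total without mitochondrially encoded genes, where it went to 0.19, and -0.27 to -0.13 without a line. The mitochondrial median between P5 and parental cells, 0.65, was 0.39 with the block. It was 0.77 without #9 and #10, where the P5 cells were those of #3 and #7, and 0.60 to 0.79 without a line. Within lines it was lower than these group values without the block, from 0.31 in #3 to 0.55 in #9. Taking the median rather than the mean log2 level over members moved the nuclear level from 10.90 to 11.10 in parental, 11.04 to 11.22 in resistant and 10.86 to 10.99 in P5 cells, and the mitochondrial level from 15.27 to 16.14, 15.75 to 16.70, 16.08 to 16.88 and, at P12, 15.50 to 16.28. The causes were not tested. Depth limits low members such as Cox7a1, which lay as low as 5.21 normalized counts.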

Other observations

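Between P12 and resistant cells, few genes of the wider lists passed limma. Of 21 complex IV assembly factors Cox11 fell by 0.61 (adjusted p 0.0457), after it had risen between parental and resistant cells. Of 30 genes of mitochondrial DNA maintenance and transcription, Hsd17b10 rose by 1.28 and Polg2, the accessory subunit of the mitochondrial DNA polymerase, by 0.57. Of the 11 MAPK targets 10 rose and 0 fell. The 78 mitochondrial ribosomal proteins gave 0 calls in limma and 1 with the line as a block, with a median log2 change of -0.11 where that of all genes was 0.02. Between P12 and parental cells 0 genes of these lists were called in limma without the block.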
